A study of Drosophila melanogaster with 10 samples.

Results

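Neurexin 1 (*Nrx-1*) and the 4 neuroligins of *Drosophila* (*Nlg1*, *Nlg2*, *Nlg3* and *Nlg4*) were followed in developing T4 and T5 neurons. These 5 genes, of the 17757 listed in the count tables, were taken by their symbols. Neurexins are transmembrane proteins of the presynaptic side that bind neuroligins across the synaptic cleft, and both families recruit scaffold proteins through short motifs at their intracellular ends. Neuroligins carry an extracellular domain with the fold of acetylcholinesterase but without its catalytic activity. At the larval neuromuscular junction of *Drosophila* both families are known for their part in the growth and alignment of synapses.

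T4 and T5 neurons are the direction-selective cells of the fly visual system. T4 dendrites lie in the medulla and T5 dendrites in the lobula, and the subtypes a, b, c and d of both send their axons to separate layers of the lobula plate. The study profiled single T4/T5 neurons to find genes that differ between these subtypes while dendrites and synapses form. Cells of pupal brains were sorted by the GFP that *SS00324-splitGal4* drives from *UAS-mCD8::GFP*, so all groups carry both transgenes and only cells in which the driver is active were collected. The groups are pupae of 5 ages, counted in hours after puparium formation (APF): 24 h, 36 h, 48 h, 60 h and 72 h APF, with 2 biological replicates and thus 2 libraries at each stage, and there was no other genotype or treatment.

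The 10 libraries held 2588 to 13534 cell barcodes and 12798989 to 62530395 unique molecular identifiers (UMIs, one for each captured RNA molecule). Of 72871 barcodes, 46732 were T4/T5-like (958 to 7937 per library), and 45504 of these fell into the 8 classes T4a to T5d, with 100 to 1467 cells per class and library. Classes were rebuilt from marker genes, so they may differ from those of the study. The labelled cell type was checked in the class sums: *SoxN* lay between 1077 and 3589 CPM (counts scaled to a common total), *Sox102F* between 446 and 1160 CPM, *Lim1* between 620 and 1427 CPM and the cholinergic marker *VAChT* between 154 and 885 CPM. The glial genes *repo*, *Gs2*, *Eaat1* and *alrm* reached at most 1.2, 2.98, 3.13 and 2.52 CPM, *VGlut* 3.05 CPM and *Gad1* 0.569 CPM. Any pair of libraries shared 0 to 53 barcodes. The replicates of 48 h and of 72 h APF stood further apart than those of other stages. Over genes, log2 differences between replicates had an SD of 0.432 (48 h) and 0.568 (72 h), and of 0.160 (24 h), 0.326 (36 h) and 0.1705 (60 h). The first library of each of these 2 stages also had a lower median share of mitochondrial UMIs than the second (2.85 and 6.33% at 48 h, 3.55 and 7.04% at 72 h). Results are therefore also given without both first libraries where that changed a call. Where leaving out libraries left a stage with 1 library, its spread could not be measured and was taken from the other stages. Calls of that stage therefore assume that the lone library varies like the others. Leaving out a 48 h or 72 h library also removed the wide replicate gap of that stage from the spread shared by all tests. Calls between other stages could then be gained at nearly the same effect size, although the libraries compared were unchanged. Such gained calls are no added support for a difference.

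In the BDGP6.54 assembly with a later Ensembl annotation than the one used for counting, *Nrx-1* (FBgn0038975) lies on chromosome 3R at 22468512 to 22486969 on the plus strand and has 9 annotated transcripts. *Nlg1* (FBgn0051146) lies on 3R at 7658247 to 7694874 on the plus strand. *Nlg3* (FBgn0083963) lies on 3R at 7570281 to 7639434 on the minus strand, 18.8 kb from *Nlg1* with 4 genes between them. *Nlg4* (FBgn0083975) lies on 3R at 20204809 to 20245473 on the plus strand and *Nlg2* (FBgn0031866) on 2L at 6874900 to 6906656 on the plus strand. The lncRNA gene *lncRNA:CR44332* lies inside *Nlg3* on the same strand and had 311 UMIs in T4/T5-like cells, where *Nlg3* had 105135. The overlap of other genes was small. *mir-932* in *Nlg2* had 5 UMIs, and *CG17199* and *lncRNA:CR46043* opposite *Nlg4* had 11 and 6 UMIs.

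Transcripts of *Nrx-1*, *Nlg2*, *Nlg3* and *Nlg4* were found at every stage, whereas *Nlg1* was nearly undetected. T4/T5-like cells held 151156 UMIs of *Nrx-1*, 710982 of *Nlg2*, 105135 of *Nlg3* and 33968 of *Nlg4*, but 4 of *Nlg1*. *Nlg1*, the neuroligin first described at the larval neuromuscular junction, had a UMI in 3 of 46732 cells (0.00642%, with an upper 95% exact Clopper-Pearson limit of 0.0188%) and in 0 of 592 glia-like cells (up to 0.621%). These intervals cover counting error only. The 4 UMIs came from 36, 48 and 60 h APF. *Nlg1* did not pass the filter on low counts and was not tested, so 4 of the 5 genes enter the comparisons below.

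Free RNA in the droplets also gives UMIs to cells that do not express a gene. Glia-like cells, which should lack most neuronal transcripts, had a median depth of 1076 UMIs, and T4/T5-like cells of 4753 UMIs. A UMI of *Nlg2* was found in 99.2% of T4/T5-like cells and in 37.2% of glia-like cells, of *Nrx-1* in 89.7 and 18.2%, of *Nlg3* in 65.5 and 15.2%, and of *Nlg4* in 32.3 and 6.08%. Every cell was then thinned to 2000 UMIs, which kept 45447 T4/T5-like and 189 glia-like cells. The shares were 97.7 and 60.3% for *Nlg2*, 68.4 and 29.1% for *Nrx-1*, 46.8 and 25.4% for *Nlg3*, and 19.8 and 8.99% for *Nlg4*. All 4 shares were higher in T4/T5-like cells at either depth over the pooled stages. In CPM, the glia-like level was 23.2 to 33.7% of the T4/T5-like level for the 4 genes, compared with 32.7 to 38.8% for *SoxN*, *Sox102F*, *Lim1* and *elav*, which mark T4/T5 neurons or neurons in general.

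Glia-like cells differed between stages in this respect. At 72 h APF their levels were 56.4 to 74.8% of the T4/T5-like level for the 4 genes and 54.5 to 70.7% for the 4 neuronal markers, and at 36 h APF 49.8 to 67.0% and 47.4 to 54.8%. At 60 h APF they were 5.8 to 15.9% for the 4 genes and 12.8 to 31.1% for the 4 neuronal markers. The 60 h values of the 4 genes rested on only 2 to 20 glia-like UMIs per gene. The thinned share of cells with *Nlg4* at 72 h APF was 33.5% among T4/T5-like cells and 33.3% among 51 glia-like cells. Unthinned, at unlike depths, the shares were 49.0 and 25.3%. Because the glia-like cells of that stage also held much RNA of the neuronal markers, they cannot show whether the *Nlg4* share exceeds background.

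In T4/T5-like cells *Nlg4* and *Nlg3* rose between 48 and 60 h APF, *Nrx-1* was 4.94 times higher at 72 h than at 24 h APF, and *Nlg2* was not called in any comparison of stages. Levels are CPM after scaling by TMM (trimmed mean of M-values), given for replicate 1 and replicate 2 of each stage. The sums of UMIs per library were tested by edgeR's quasi-likelihood method, two-sided, with Benjamini-Hochberg adjustment over 8179 genes and a threshold of 0.05. Intervals of folds and ratios were built from the SE with the normal quantile. With so few libraries, those of the stage comparisons are somewhat too narrow. In bulk sums such as these, fewer cells that express a gene and less RNA per cell cannot be told apart. The shares of cells with a UMI are given beside the levels as a description. At few UMIs per cell a share also rises with the mean level alone, so the shares cannot separate these readings either.

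*Nrx-1*, which encodes the presynaptic partner of the neuroligins, had 272 and 284 CPM at 24 h, 457 and 357 CPM at 36 h, 973 and 578 CPM at 48 h, 911 and 983 CPM at 60 h, and 1845 and 901 CPM at 72 h APF. Both 72 h libraries lay above both 24 h libraries, and the 72 h replicates lay further apart than those of the other stages. The change of 72 h over 24 h was 2.30 on the log2 scale (4.94-fold, approximate 95% interval 2.99 to 8.15; adjusted p = 0.000865, edgeR's quasi-likelihood test). Leaving out 1 library moved this log2 change between 1.70 and 2.71. No change between neighbouring stages was called. The log2 differences were 0.55 (36 over 24 h), 0.93 (48 over 36 h), 0.29 (60 over 48 h) and 0.54 (72 over 60 h). Of these, 1 of 4 was under an unadjusted p of 0.05, and 0 of 4 were called by DESeq2. The step of 48 over 36 h was called when either 72 h library was left out (0.94, adjusted p = 0.0329 without replicate 1 and 0.0340 without replicate 2). Without both first libraries of 48 and 72 h APF, 60 over 48 h was 0.70 and called (adjusted p = 0.0268). The share of cells with a UMI at 2000 UMIs per cell was 47.6, 59.4, 75.9, 80.9 and 85.2% (means of 2 libraries) at the 5 stages, against 82.0, 87.1, 95.9, 98.7 and 94.3% in unthinned cells.

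*Nlg2*, a neuroligin known to act on both sides of the larval neuromuscular junction, had 1823 and 2030 CPM at 24 h, 3528 and 2995 CPM at 36 h, 3590 and 4636 CPM at 48 h, 3512 and 3613 CPM at 60 h, and 2263 and 2318 CPM at 72 h APF. The 24 h and 72 h libraries were the 4 lowest, and those of the stages between did not come below 2995 CPM. None of the 5 stage comparisons was called in edgeR's quasi-likelihood test. The step of 36 over 24 h was 0.76 (adjusted p = 0.0675), and that of 72 over 60 h was −0.64 (adjusted p = 0.0753). The change of 72 over 24 h was 0.25 (adjusted p = 0.279; 1.19-fold, interval 0.921 to 1.54). Of the 4 comparisons of neighbouring stages, 2 were under an unadjusted p of 0.05, and the same number was called by DESeq2. Without both first libraries of 48 and 72 h APF, 36 over 24 h was 0.76 and called (adjusted p = 0.0111). The change of 72 over 24 h turned sign, to −0.31 and not called, when libraries were scaled by total UMIs in place of TMM. With total UMIs the step of 72 over 60 h was −0.78 and called (adjusted p = 0.0354, edgeR's quasi-likelihood test). The thinned share of cells with a UMI was 97.2, 99.8, 99.9, 99.0 and 93.8% at the 5 stages.

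*Nlg3*, a neuroligin studied at the neuromuscular junction and in larval locomotion, had 334 and 355 CPM at 24 h, 276 and 327 CPM at 36 h, 163 and 192 CPM at 48 h, 985 and 954 CPM at 60 h, and 483 and 750 CPM at 72 h APF. The 48 h libraries were the lowest and the 60 h libraries the highest, with no overlap. The step of 60 over 48 h was 2.45 on the log2 scale (5.46-fold, interval 3.95 to 7.53; adjusted p = 0.000289), and 3.25% of all genes tested had a larger one. The difference of 72 over 24 h was 0.84 (1.79-fold, interval 1.32 to 2.44; adjusted p = 0.0121). It was lost with total UMIs as the scaling (0.30, adjusted p = 0.351). It was also lost without either 24 h library (adjusted p = 0.0879 without replicate 1 and 0.0606 without replicate 2) or the second 72 h library (0.47, adjusted p = 0.0729). The steps of 36 over 24 h (−0.19), 48 over 36 h (−0.76, adjusted p = 0.0541) and 72 over 60 h (−0.65, adjusted p = 0.121) were not called. However, 48 over 36 h was called without both first libraries of 48 and 72 h APF (−0.65, adjusted p = 0.0286) and with total UMIs as the scaling (−0.98, adjusted p = 0.0400), as well as without either 72 h library alone (adjusted p = 0.0136 and 0.0150). Without the second 72 h library, 72 over 60 h was −1.01 and called (adjusted p = 0.0195). Thinned shares of cells with a UMI were 48.2, 39.6, 23.7, 69.2 and 55.2% at the 5 stages.

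*Nlg4*, a neuroligin known for a role in sleep and in inhibitory transmission of clock neurons in the adult fly, had 16.8 and 25.0 CPM at 24 h, 8.51 and 10.1 CPM at 36 h, 21.3 and 38.4 CPM at 48 h, 593 and 552 CPM at 60 h, and 244 and 276 CPM at 72 h APF. The libraries of 60 and 72 h lay above all those of the first 3 stages, and the 36 h libraries were the lowest. The step of 60 over 48 h was 4.26 on the log2 scale (19.1-fold, interval 12.2 to 30.01; adjusted p = 0.000117), and 1.06% of all genes had a larger one. The gene was also higher at 48 h than at 36 h (1.68, adjusted p = 0.00718) and lower at 72 h than at 60 h (−1.14, adjusted p = 0.0473). Over the whole span, 72 over 24 h, it rose 12.4-fold (log2 3.63, interval 8.01 to 19.2; adjusted p = 2.9e-05). The step of 36 over 24 h was −1.16 and not called (adjusted p = 0.0792), but it was called without either 48 h library (adjusted p = 0.0323 and 0.0360) and without both first libraries of 48 and 72 h APF (adjusted p = 0.00502). The call at 48 over 36 h was lost without the first 36 h library (1.57, adjusted p = 0.0598). That at 72 over 60 h was lost without any 1 of the 8 libraries of 24, 36, 60 and 72 h APF (adjusted p = 0.0665 to 0.239). The thinned share of cells with a UMI was 4.39, 2.49, 5.72, 62.3 and 33.5% at the 5 stages.

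Of the 4 genes tested, 0 were called for 36 over 24 h, 1 for 48 over 36 h, 2 for 60 over 48 h, 1 for 72 over 60 h and 3 for 72 over 24 h. Among all 8179 genes tested, the shares called were 4.38, 16.2, 19.1, 9.27 and 58.3% in these comparisons. At 36 over 24 h, 2 of the 4 were under an unadjusted p of 0.05, and DESeq2 called *Nlg2* and *Nlg4* there. The 3 calls of 72 over 24 h are therefore read against a background in which more genes were called than not, with 28.9% of all genes called higher. This comparison also depended on the scaling. Of the called genes, 49.6% were higher with TMM and 28.9% with total UMIs, and the median of all genes was 0.03 and −0.53 on the log2 scale. For 48 over 36 h the share higher was 57.9 and 39.5% with the 2 scalings, for 60 over 48 h 48.5 and 38.4%, and for 72 over 60 h 55.3 and 41.1%. The medians under total UMIs were −0.17, −0.23 and −0.15. With total UMIs the 72 over 24 h change was 1.71 for *Nrx-1* and 3.09 for *Nlg4*, both still called.

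**Figure D1:**
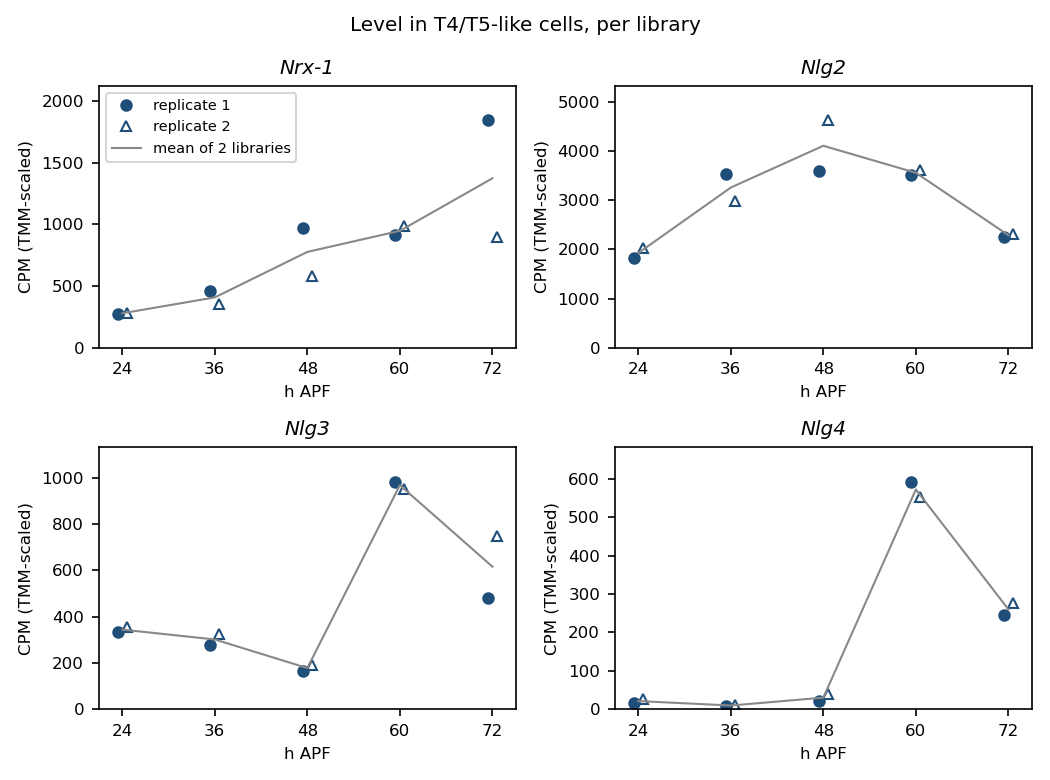
Level of each gene (TMM-scaled CPM, vertical axis from 0) in T4/T5-like cells at 24 to 72 h APF, with 1 point per library and a line through the stage means. *Nlg4* stayed at or below 38.4 CPM up to 48 h and lay between 244 and 593 CPM from 60 h on, and *Nlg3* had its lowest libraries at 48 h (163 and 192 CPM) and its highest at 60 h (985 and 954 CPM).

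Differences between T4 and T5 were then tested in the 80 sums of 8 classes and 10 libraries, with 1 group per stage and class, over 7140 genes. Averaged over the classes, *Nlg3* was higher in T4 than in T5 at 24, 36 and 48 h APF. It was lower at 60 and 72 h APF. *Nlg4* was higher in T4 at 24 h and lower at 60 h APF, *Nlg2* was higher in T4 at 24 h APF, and no call was made for *Nrx-1*. Values for T4 and for T5 are means of their 4 classes in replicate 1 and replicate 2. The log2 differences instead average the classes on the log2 scale, so low classes weigh more in them.

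For *Nlg3*, T4 had 402 and 399 CPM at 24 h, 360 and 392 CPM at 36 h and 162 and 189 CPM at 48 h APF, against 251 and 281, 187 and 228, and 116 and 153 CPM in T5. At 60 h, T4 had 642 and 589 CPM and T5 1281 and 1242 CPM. At 72 h, T4 had 299.6 and 485 CPM and T5 659 and 969 CPM. T4 libraries were above the T5 libraries up to 48 h and below them afterwards, without overlap within a stage. At 48 h subtype b went the other way, unlike a, c and d, with 256 and 335 CPM in T4b and 294 and 366 CPM in T5b.

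The log2 difference of T4 over T5 for *Nlg3* was 0.60, 0.96, 0.99, −1.02 and −1.05 at 24, 36, 48, 60 and 72 h APF. All 5 were called (adjusted p = 0.00225, 6.7e-07, 1.6e-07, 2.8e-08 and 1.6e-08, edgeR's quasi-likelihood test). The shares of all genes called in these tests were 3.4, 3.63, 10.4, 16.5 and 16.5%. On a linear scale T4 was 1.51 times T5 at 24 h (interval 1.26 to 1.81) and 1.99 times at 48 h (1.66 to 2.40), while T5 was 2.03 times T4 at 60 h. The 48 h fold lay above the ratio of the mean levels, with T5c at 22.0 and 37.9 CPM and T5d at 15.8 and 26.2 CPM. From 24 to 72 h the difference changed by −1.65 (adjusted p = 2.8e-09, 8.56% of genes called). Averaged over the stages it was 0.10 (adjusted p = 0.301), because the signs cancelled. With the library as a block this mean was 0.081 and called (adjusted p = 0.000707). The 24 h call was lost when either 24 h library was left out (0.51, adjusted p = 0.583 without replicate 1 and 0.69, adjusted p = 0.0918 without replicate 2).

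*Nlg4* had 21.0 and 30.2 CPM in T4 and 11.8 and 17.1 CPM in T5 at 24 h (log2 0.86, adjusted p = 0.00522). It had 473 and 424 CPM in T4 and 704 and 660 CPM in T5 at 60 h APF (−0.61, adjusted p = 0.0141). At 36 h T4 had 10.3 and 12.6 CPM and T5 8.01 and 7.49 CPM (0.92, adjusted p = 0.0648). At 48 h T4 had 24.0 and 41.3 CPM and T5 18.0 and 35.6 CPM (0.25, adjusted p = 0.651). At 72 h T4 had 236 and 274 CPM and T5 250 and 281 CPM (−0.07, adjusted p = 0.924; ratio 0.742 to 1.22). Replicates of T4 and T5 overlapped at 48 and 72 h but not at 24, 36 or 60 h. The change of the difference from 24 to 72 h was −0.93 (adjusted p = 0.0217), and the mean over stages was 0.27 (adjusted p = 0.0351; 21.6% of genes called). Both calls at single stages were lost when either library of that stage was left out (adjusted p = 0.238 and 0.292 at 24 h, 0.248 and 0.326 at 60 h). The change from 24 to 72 h lost its call without any 1 library of 24, 60 or 72 h APF (adjusted p = 0.0545 to 0.182). The mean over stages lost it without any 1 library other than those of 48 h APF (adjusted p = 0.0589 to 0.346), with values between 0.23 and 0.33 over the 10 fits. The 36 h difference was called without either 48 h library (0.92 each, adjusted p = 0.000317 and 0.000498).

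For *Nlg2*, T4 had 2103 and 2261 CPM at 24 h APF and T5 1488 and 1649 CPM (log2 0.48, adjusted p = 7.9e-05; 1.39-fold, interval 1.24 to 1.56). At later stages the log2 differences were 0.22, −0.12, −0.15 and −0.07, of which none was called, except that of 36 h without the first 48 h library (0.22, adjusted p = 0.0268). The difference fell by 0.54 from 24 to 72 h (adjusted p = 0.00107). Without the first 24 h library both calls were lost (0.45, adjusted p = 0.0880, and −0.52, adjusted p = 0.0535). *Nrx-1* differed by at most 0.07 on the log2 scale at any stage, with 0 of 5 tests called, 0 under an unadjusted p of 0.05 and 0 called by DESeq2. The interval of the ratio of T4 to T5, averaged over stages, was 0.881 to 1.12.

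The 8 class sums of 1 library share its cells' preparation and depth, and they deviated together (lowest correlation between classes 0.376, 0.549, 0.801, 0.279 and 0.824 at the 5 stages). With the library as a block, no call of T4 over T5 was lost. More differences were then called. They included *Nrx-1* at 60 h (−0.06, adjusted p = 0.0216) and 72 h (−0.07, adjusted p = 0.00482) and in its change from 24 to 72 h (−0.13, adjusted p = 0.00149). They also included *Nlg2* at 36 h (0.22, adjusted p = 1.4e-15), 48 h (−0.12, adjusted p = 9.7e-08), 60 h (−0.15, adjusted p = 2.3e-10), 72 h (−0.06, adjusted p = 0.00713) and in the mean (0.072, adjusted p = 3.0e-11). *Nlg4* was called at 36 h (0.96, adjusted p = 0.00131) and 48 h (0.23, adjusted p = 0.0267). The block also raised the background, to 13.9, 11.4, 28.8, 35.4 and 37.4% of all genes at the 5 stages, 42.6% for the mean and 28.1% for the change from 24 to 72 h.

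**Figure D2:**
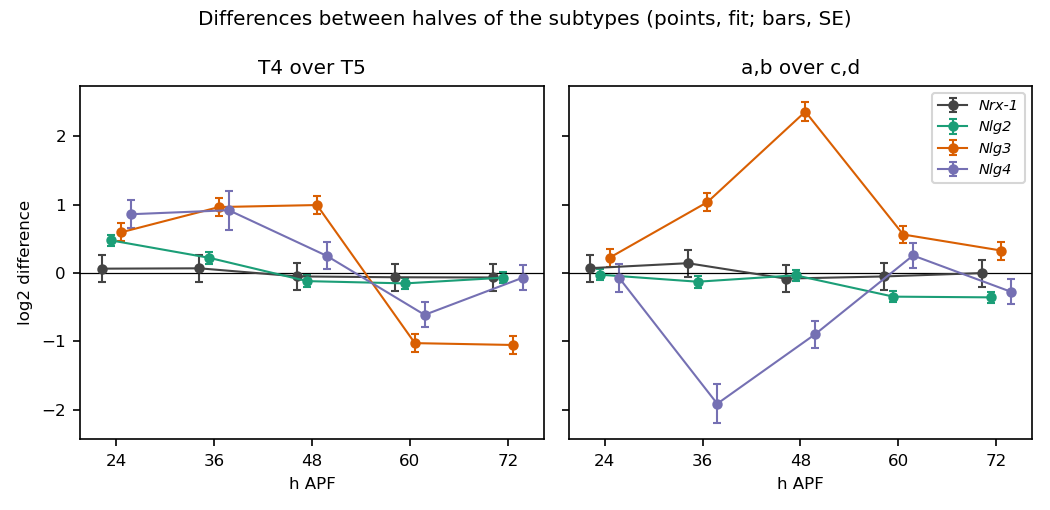
Log2 difference of T4 over T5 and of subtypes a and b over c and d for *Nrx-1*, *Nlg2*, *Nlg3* and *Nlg4* at 24 to 72 h APF, from edgeR, with bars for the SE and a line at 0. *Nlg3* lay above 0 in T4 over T5 up to 48 h (0.99) and below it from 60 h (−1.02), and its difference of a and b over c and d was largest at 48 h (2.36).

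Subtypes a and b were next set against c and d, the split that the axons of the adult neurons make between layers that respond to horizontal and to vertical motion. *Nlg3* was higher in a and b, and *Nlg4* lower, at intermediate stages. *Nlg2* was lower in a and b from 60 h on, and *Nrx-1* was not called. For *Nlg3*, the a and b classes had 351 and 364 CPM at 24 h and 356 and 412 CPM at 36 h APF, against 302 and 316 CPM and 192 and 208 CPM in c and d. At 48 h they had 228 and 278 CPM, and c and d 50.6 and 63.5 CPM. At 60 h they had 1160 and 1082 CPM, against 763 and 750 CPM, and at 72 h 539 and 803 CPM, against 419 and 651 CPM in c and d. The 2 sides did not overlap from 24 to 60 h, and the 72 h libraries did.

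The log2 difference of a and b over c and d for *Nlg3* was 0.22 (adjusted p = 0.752), 1.04 (adjusted p = 4.2e-08), 2.36 (adjusted p = 1.4e-18), 0.56 (adjusted p = 0.00187) and 0.33 (adjusted p = 0.154) from 24 to 72 h APF. At 48 h this was 5.13-fold (interval 4.24 to 6.21). The shares of all genes called were 5.99, 6.72, 9.33, 7.77 and 7.44%. Averaged over stages, *Nlg3* was higher in a and b by 0.90 (adjusted p = 2.6e-17; 13% of genes called). The 60 h call was lost when either 60 h library was left out (0.49, adjusted p = 0.340 and 0.62, adjusted p = 0.0849).

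*Nlg4* ran the other way. At 36 h APF it had 2.91 and 4.88 CPM in a and b and 15.4 and 15.2 CPM in c and d, a log2 difference of −1.91 (adjusted p = 8.7e-07; 3.76-fold higher in c and d). At 48 h it had 11 and 29.9 CPM in a and b and 31.0 and 46.9 CPM in c and d (−0.89, adjusted p = 0.000724), where both sides of the same library differed in this direction. At 60 h, a and b had 637 and 588 CPM and c and d 540 and 496 CPM (0.26, adjusted p = 0.640). No call was made at 24 h (−0.07) or at 72 h (229 and 243 CPM in a and b, 257 and 311 CPM in c and d; −0.27, adjusted p = 0.612). The mean over stages was −0.58 (adjusted p = 5.2e-06).

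*Nlg2* had 3179 and 3248 CPM in a and b and 4051 and 4121 CPM in c and d at 60 h APF (log2 −0.35, adjusted p = 0.00348; 1.27-fold higher in c and d). At 72 h it had 2008 and 2027 CPM in a and b, against 2531 and 2628 CPM in c and d (−0.36, adjusted p = 0.00268). At 24, 36 and 48 h the differences were −0.02, −0.13 and −0.03 and not called, and the mean over stages was −0.18 (adjusted p = 0.000391). Both calls were lost when either library of their stage was left out (adjusted p = 0.236 and 0.174 at 60 h, 0.0918 and 0.182 at 72 h). *Nrx-1* had 0 of 5 tests called, 0 under an unadjusted p of 0.05 and 0 called by DESeq2. Its ratio of a and b to c and d over the stages lay between 0.896 and 1.14.

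With the library as a block no call was lost and several more were made, over backgrounds of 17.7, 17.7, 25.4, 22 and 23% at the 5 stages, 30.7% for the mean and 18.9% for the change from 24 to 72 h. They were *Nlg3* at 24 h (0.22, adjusted p = 1.1e-06) and 72 h (0.33, adjusted p = 3.5e-11), and *Nlg4* at 60 h (0.26, adjusted p = 8.1e-09) and 72 h (−0.30, adjusted p = 2.0e-08). *Nlg2* was called at 36 h (−0.13, adjusted p = 6.7e-08) and in its change from 24 to 72 h (−0.33, where 5.14% of genes were called without the block). *Nrx-1* was called at 24 h (0.07, adjusted p = 0.0374), 36 h (0.13, adjusted p = 8.7e-05) and 48 h (−0.08, adjusted p = 0.00143). *Nlg4* at 60 h was thus higher in a and b, the opposite of 36 and 48 h APF.

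Subtypes b and c were set against a and d, the split marked by *grain* (*grn*). None of the 20 tests of 4 genes at 5 stages was called by edgeR's quasi-likelihood test, 2 were under an unadjusted p of 0.05, and DESeq2 called 0, over backgrounds of 1.27, 1.02, 1.62, 1.75 and 1.43% of genes at the 5 stages. The *Nlg3* difference at 48 h was 0.44 (adjusted p = 0.118; ratio 1.13 to 1.63), and it was called without either 72 h library (0.44, adjusted p = 0.00701 and 0.00716). With the library as a block 6 of the 20 were called, over backgrounds of 4.62, 4.47, 6.32, 6.54 and 5.92%. Of these, 4 were for *Nlg3*, at 0.17 at 24 h (adjusted p = 0.000526), 0.44 at 48 h (adjusted p = 1.4e-07), −0.29 at 60 h (adjusted p = 1.9e-10) and −0.16 at 72 h (adjusted p = 0.00145). The others were *Nlg4* at 48 h (−0.27, adjusted p = 0.0301) and *Nlg2* at 60 h (−0.06, adjusted p = 0.0205).

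Single classes were compared in all 140 pairs (28 pairs of classes at each of 5 stages). *Nlg3* was called in 59 pairs, *Nlg4* in 14, *Nlg2* in 2 and *Nrx-1* in 0, where a pair called 3.9% of all genes. For *Nrx-1*, 0 pairs were under an unadjusted p of 0.05, DESeq2 called 0, and the largest log2 difference was 0.29. As many pairs as for *Nlg3* were called for 2.44% of all genes, as many as for *Nlg4* for 11.8% and as many as for *Nlg2* for 23.9%. The *Nlg3* pairs numbered 2, 12, 21, 11 and 13 at the 5 stages, and 49 of the 59 reached 2-fold, where 3.1% of all genes in a pair were called at that size. With the library as a block, 111 pairs were called for *Nlg3*, 86 for *Nlg4*, 82 for *Nlg2* and 17 for *Nrx-1*, over a background of 12.6%. Leaving out 1 library moved the count of *Nlg4* to 5 and 7 without the second and first 36 h library, to 9 without either 24 h library and to 30 and 41 without the first and second 48 h library. It moved that of *Nlg2* to 25 and 12 without the first and second 48 h library and to 0 without any 1 library of 24, 60 or 72 h.

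Among the stages, *Nlg3* separated the classes most at 48 h APF. T5b had 294 and 366 CPM, T4b 256 and 335 CPM, T4a 229 and 230 CPM and T5a 133 and 182 CPM. T4d had 85.5 and 104 CPM, T4c 79.3 and 86.2 CPM, T5c 22.0 and 37.9 CPM and T5d 15.8 and 26.2 CPM. All 4 a and b classes lay above all 4 c and d classes in both replicates, and the highest mean was 15.7 times the lowest. T5b over T5d, the largest difference of any pair for *Nlg3*, was 3.95 ± 0.30 on the log2 scale (SE; adjusted p = 2.6e-14). T4c over T5c, neighbours in this order, also differed (1.45, adjusted p = 0.000334), whereas the other neighbours did not differ beyond the threshold.

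At 60 h APF the order was another one. T5a had 1785 and 1721 CPM, T5b 1266 and 1245 CPM, T5d 1148 and 1121 CPM and T5c 923 and 881 CPM. T4a had 864 and 732 CPM, T4b 723 and 629 CPM, T4d 527 and 497 CPM and T4c 453 and 499 CPM. Every T5 class was above every T4 class in both replicates. The order of the means was T5a, T5b, T5d, T5c, T4a, T4b, T4d and T4c, and at 72 h APF it was the same. The highest class mean was 3.69 times the lowest at 60 h and 2.95 times at 72 h. At 24 h APF the order was T4b, T4c, T4a, T4d, T5b, T5a, T5c and T5d, with a fold of 1.95. Over the 5 stages 2 of the 35 steps between neighbouring classes were called for *Nlg3*, the other being T4d over T5d at 36 h (1.23, adjusted p = 0.00621), and 0 of 35 for each of the other 3 genes. These steps were read only from the fit without the library as a block, which called fewer pairs than the fit with it.

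**Figure D3:**
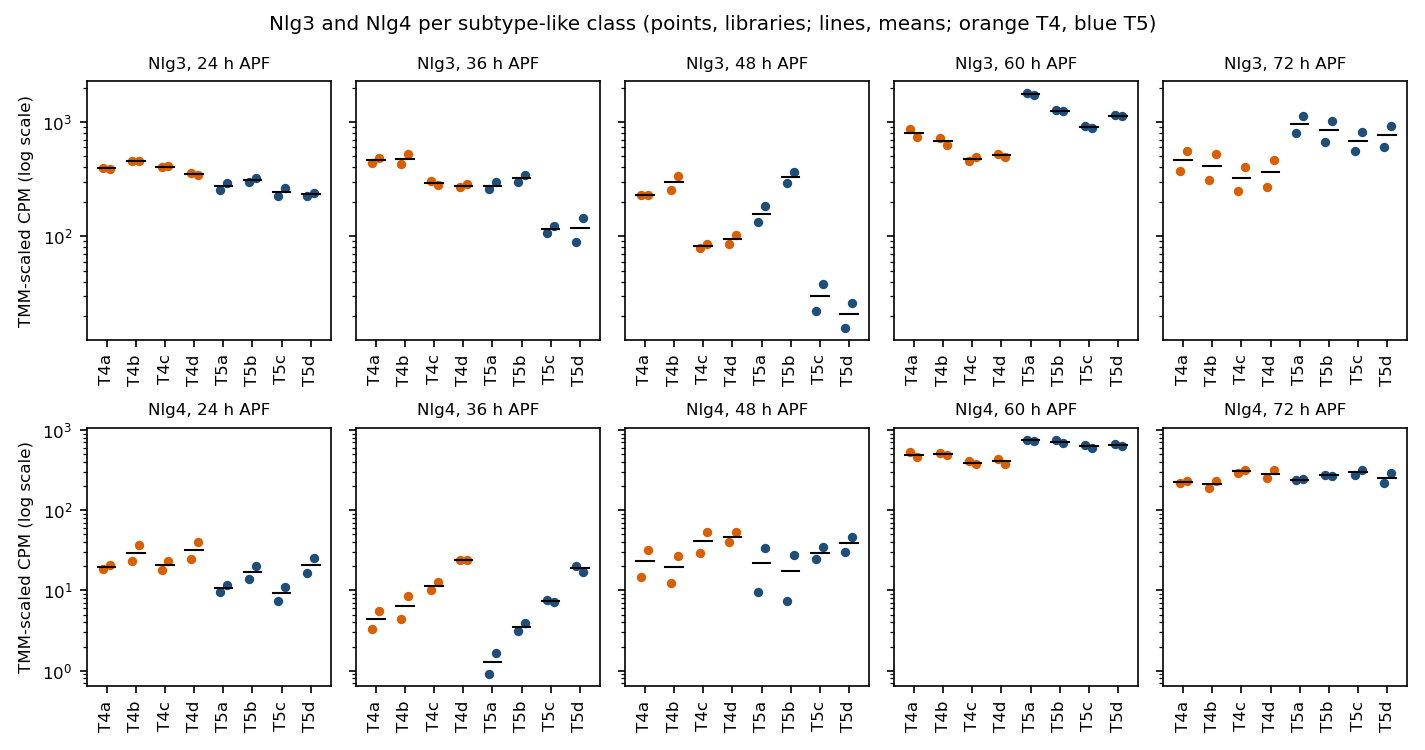
Level of *Nlg3* and *Nlg4* (TMM-scaled CPM, log scale) in the 8 classes at the 5 stages, with 1 point per library and class, lines for the means, and T4 (orange) drawn left of T5 (blue). For *Nlg3* the classes span 15.8 to 366 CPM at 48 h, with a and b above c and d, and 453 to 1785 CPM at 60 h, with T5 above T4.

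*Nlg4* separated the classes most at 36 h APF, where its level was low. T4d had 23.7 and 23.7 CPM and T5d 20.4 and 17.1 CPM. T4c had 9.99 and 12.6 CPM and T5c 7.65 and 7.20 CPM. The a and b classes had at most 8.44 CPM, with 0.900 and 1.67 CPM in T5a, so the highest mean was 18.5 times the lowest. The T5a values rest on 1 and 5 UMIs and those of T4d on 25 and 94 UMIs, so the size of this fold is uncertain. T4d over T5a was 4.0 ± 0.62 on the log2 scale (SE; adjusted p = 4.3e-06), the largest difference of any pair for *Nlg4*. Its 14 called pairs fell at 24 h (4), 36 h (8) and 48 h (2), with 0 at 60 and 72 h APF, the stages at which its level was highest. At 60 h the highest class, T5a (754 and 727 CPM), was 1.90 times the lowest, T4c (410 and 371 CPM). *Nlg2* classes differed by at most 1.48-fold at any stage and *Nrx-1* classes by at most 1.22-fold.

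The fit over all stages also tested whether a class difference changed over the 5 stages. For T4 over T5 it did for *Nlg3* (adjusted p = 3.07e-15), *Nlg4* (adjusted p = 0.000227) and *Nlg2* (adjusted p = 0.000125) in edgeR's quasi-likelihood F test, over 11.8% of all genes. For a and b over c and d it did for *Nlg3* (adjusted p = 1.39e-12) and *Nlg4* (adjusted p = 1.45e-05) over 9.97% of all genes, and not for *Nlg2* (adjusted p = 0.0935).

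Other genes of the synapse were taken from lists of gene names and compared at 72 over 24 h APF, where 28.9% of all genes were called higher and 29.4% lower. Of 14 intracellular and active zone partners of neurexin, 9 rose, 2 fell and 3 did not pass the test, with a median of 1.04, beside 0.03 over all genes. These counts of partners, scaffold and adhesion genes were made on lists of known names with earlier results in view. *Rbp*, which links calcium channels to the active zone, averaged 1343 ± 108 CPM at 72 h and 0.829 ± 0.060 CPM at 24 h APF (SD, n = 2). *RhoGAP100F* (Syd-1), an early active zone protein that binds neurexin, rose by 3.92 on the log2 scale (adjusted p = 2.7e-05, edgeR's quasi-likelihood test). *cac*, the presynaptic calcium channel, *Syt1*, the calcium sensor of release, and *brp*, the active zone scaffold, were also among the 9. *Spn*, which binds neurexin, was lower (−2.55, adjusted p = 0.000109), and so was *X11L*, a Mint adaptor (−0.87, adjusted p = 0.00905, and 0.0627 without the second 24 h library). With total UMIs as the scaling 5 of the 14 were higher.

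Of 7 tested genes of the postsynaptic scaffold, 2 rose and 2 fell (median 0.10). *metro* (1.14) and *dlg1* (0.90), both of the membrane-associated guanylate kinase family, were higher. *Prosap* (Shank, −1.32) and *Grip* (−2.97, at 0.248 ± 0.056 CPM at 72 h and 2.10 ± 0.32 CPM at 24 h) were lower, though with total UMIs as the scaling 0 of the 7 were higher. Of 8 other trans-synaptic adhesion genes, 4 rose and 2 fell (median 0.01). The heparan sulfate proteoglycan *dally* (2.70, adjusted p = 0.0366) and the receptor phosphatase *Lar* (1.05) were up most, and the proteoglycan *dlp* (−3.89, adjusted p = 0.000400) and the teneurin *Ten-m* (−0.69) were down most. *dally* was 393 ± 409 CPM at 72 h and 60.3 ± 10.7 CPM at 24 h APF (SD, n = 2), so its replicates were far apart at 72 h. Without both first libraries of 48 and 72 h APF its change was 0.79 and not called (adjusted p = 0.112). Its call was also lost without any 1 library of 24, 60 or 72 h (adjusted p = 0.0525 to 0.420). That of *Lar* was lost without the first 24 h library (adjusted p = 0.0522), and that of *Ten-m* without the second 24 h or second 72 h library (adjusted p = 0.112 and 0.0815). With total UMIs as the scaling 0 of these 8 were higher and 4 lower.

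Acetylcholinesterase (*Ace*), whose fold neuroligins share, was the largest change among 4 cholinesterase-fold relatives, at 5332 ± 324 CPM at 72 h and 101 ± 11.5 CPM at 24 h APF (log2 5.72, adjusted p = 1.7e-06). Neurotactin (*Nrt*), an adhesion protein of that fold, was lower (−1.69, adjusted p = 0.00993), and *Gli* and *Glt* were not called (median of the list 0.00). Of 5 genes of neurexin IV and the septate junction, *vari* rose (1.91) and *Nrx-IV* fell (−1.91, adjusted p = 3.0e-05), while the other 3 were not called (median 0.07), and with total UMIs as the scaling 3 of the 5 were lower. *Nrx-IV*, a relative of neurexin 1 that is known from septate junctions, averaged 50.7 ± 0.73 CPM at 72 h and 190 ± 10.9 CPM at 24 h APF, so the 2 neurexin-family genes changed in opposite directions.

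**Figure D4:**
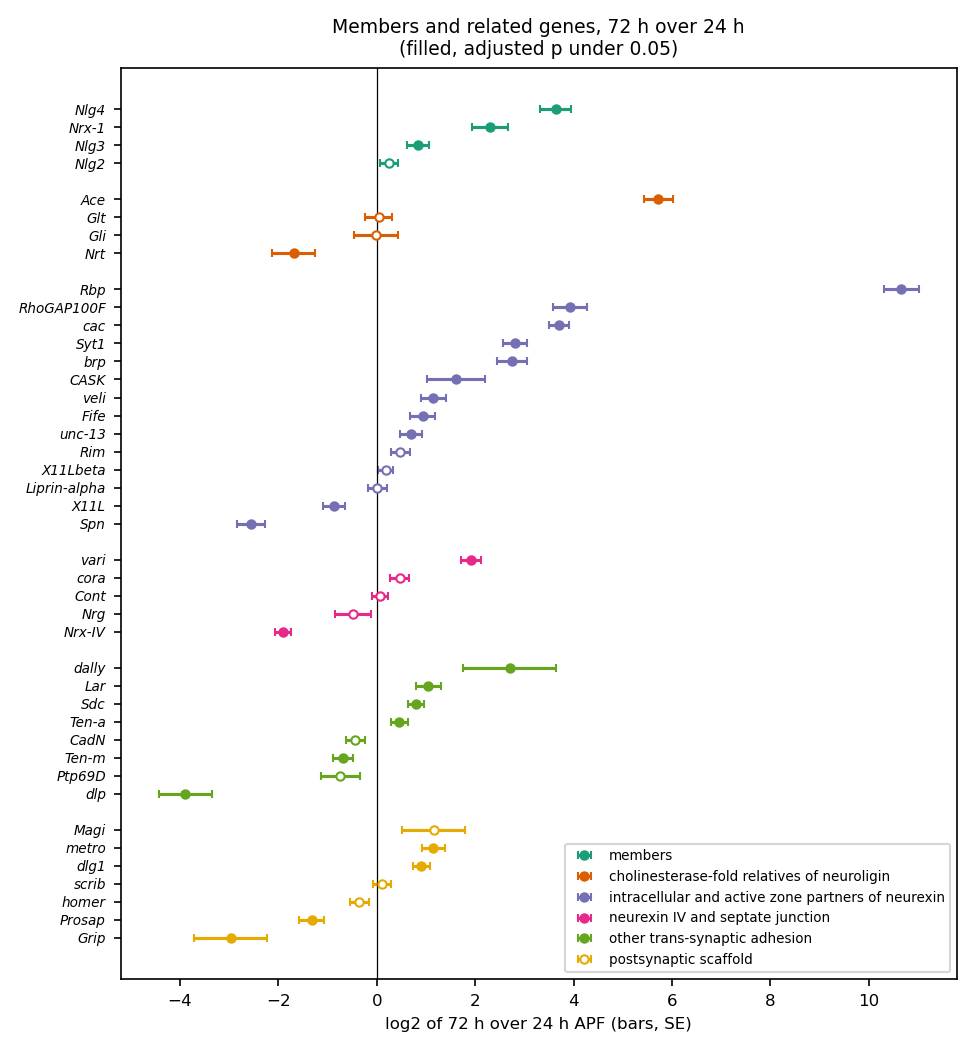
Log2 change of 72 h over 24 h APF for the genes of 5 lists and for the neurexin and neuroligins, from edgeR, with bars for the SE, filled points for called genes and a colour for each list. *Rbp* and *Ace* stand furthest to the right (10.66 and 5.72) and *dlp* furthest to the left (−3.89).

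The genes whose pattern was most like each member were found by Pearson's r of log2(CPM + 5) over the 40 means of stage and class, as a description, since those means share libraries. For every r given here CPM was scaled by total UMIs, without TMM. For *Nrx-1* these were *CG7781*, *UQCR-6.4* and *cype*, the last a subunit of mitochondrial cytochrome c oxidase (r = 0.99 each). For *Nlg2* they were *CG1371* (0.93), *kek6* (0.89) and *CG14995* (0.88). For *Nlg3* they were *fmt* (0.77), *lncRNA:CR44332* (0.77), the transcript that lies inside *Nlg3*, and *shep* (0.74). For *Nlg4* they were *CG33203* (0.95), *sky* (0.95) and *inaF-D* (0.94). Among the members themselves r was 0.72 between *Nrx-1* and *Nlg4*, 0.46 between *Nlg3* and *Nlg4*, −0.34 between *Nlg2* and *Nlg3*, and −0.03 between *Nrx-1* and *Nlg2*.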

How the data were processed

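Single-cell RNA was measured by 10x v3 droplets in GFP-sorted T4/T5 neurons, with 2 replicates at each of 5 stages (10 libraries). The deposited values are raw UMI counts per gene and barcode: the authors had counted them with Cell Ranger 3 against Ensembl annotation release 97 with GFP and split-Gal4 sequences added, and they applied no normalisation. The replicates are named as biological replicates, and nothing else is given of their origin.

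Barcodes needed at least 200 UMIs, at most 10% mitochondrial and at most 10% Hsp UMIs, which removed 10287. Scrublet in scanpy (version 1.11.5) marked 5517 barcodes as doublets, a share that grew with the number of barcodes in a library, and these were left out. Cells were clustered per stage in 2 rounds with Seurat (version 5.3.0; 2000 variable genes, 15 components, resolution 0.8, seed 20), without the 5 members among the clustering genes. T4/T5 cells were recognised by *SoxN*, *Sox102F* and *Lim1*, T4 by *TfAP-2*, a and b by *dac*, c and d by *bi*, and b and c by *grn*, with membrane genes as a second naming, and glia by *repo*, *Gs2*, *Eaat1* and *alrm*. Of 65 second-round clusters 57 were named, and the 8 others (2181 cells) stayed unnamed.

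UMIs were summed per library (10 sums) and per class and library (80 sums) and tested with edgeR (version 4.0.16; TMM, filterByExpr, quasi-likelihood, two-sided, Benjamini-Hochberg over all genes tested, threshold 0.05) in R (version 4.3.3). In simulated counts with 200 changed genes, 72 over 24 h recovered 0% of 1.5-fold, 18.2% of 2-fold and 86.4% of 4-fold changes over 8179 genes, and T4 over T5 at 48 h recovered 55.0, 91.5 and 97.1% over 7140 genes. Of the calls made, 7 (10%) were of unchanged genes in the first simulation and 6 (3.51%) in the second. The simulated sums varied independently, whereas the class sums of 1 library deviated together. In the data 58.3% of genes were called for 72 over 24 h, far more than were changed in the simulation. These shares therefore need not hold for the tests of the data. Alternatives were DESeq2 (version 1.42.0), total UMIs as scaling, no filter on low counts, doublets kept, all barcodes, members kept among the clustering genes, cells classed one by one, a replicate block, thinning to 2000 UMIs, and leaving out each library. Keeping mixed clusters and leaving out both first libraries of 48 and 72 h APF were added after the data were seen.

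Replicate numbers did not pair stages in a constant way (correlations −0.604 to 0.796 over 10 pairs of stages), whereas class sums pair by library. Deviations were nonetheless related between some stages, such as 48 and 72 h (0.796) and 60 and 72 h (−0.604). The stage tests treated all libraries as independent. Named were all members, from each list the 2 genes that rose and the 2 that fell most, and the 3 genes most like each member. *cac*, *Syt1* and *brp* are named outside that rule, after their values were seen. The members and lists were chosen with earlier results of these data known.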

Additional observations from a re-analysis of the deposited data

Results flagged for a closer look

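For 3 of the 4 genes tested, class differences changed over the 5 stages in edgeR's quasi-likelihood F test. The difference of T4 over T5 changed for *Nlg3* (adjusted p = 3.07e-15), *Nlg4* (adjusted p = 0.000227) and *Nlg2* (adjusted p = 0.000125). The difference of a and b over c and d changed for *Nlg3* (adjusted p = 1.39e-12) and *Nlg4* (adjusted p = 1.45e-05). Averaged over the classes, *Nlg3* was 0.99 higher on the log2 scale in T4 at 48 h than in T5 and differed by −1.02 at 60 h APF.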

How the results depend on the processing

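No called result changed direction under any alternative. Of 1652 alternative values for classes 1572 stayed on the same side of the threshold, as did 325 of 360 for stages. Some values that were not called changed sign, such as that of *Nlg2* at 72 over 24 h with total UMIs. With total UMIs as scaling *Nlg3* at 72 over 24 h was 0.30. *Nlg4* in T4 over T5, averaged over stages, was 0.24 with the members kept among the clustering genes and 0.12 with cells classed one by one, and neither was called. With the library as a replicate block, the means of T4 over T5 were 0.072 for *Nlg2* and 0.081 for *Nlg3*, both called, and called pairs were 17 for *Nrx-1*, 82 for *Nlg2*, 111 for *Nlg3* and 86 for *Nlg4*. Blocking stages by replicate number, which does not pair the samples, additionally called *Nlg4* at 36 over 24 h (−1.16, adjusted p = 0.0401) and *Nlg3* at 48 over 36 h (−0.76, adjusted p = 0.0349). Called pairs were 4 for *Nlg2* with total UMIs, 0 for *Nlg2* and 34 for *Nlg4* without the filter on low counts, and 0 for *Nlg2* with doublets kept. In the lists, total UMIs gave 5 neurexin partners higher, 0 scaffold genes higher, 0 adhesion genes higher and 4 lower, and 3 septate junction genes lower. All barcodes gave 1 scaffold gene lower. Without both first libraries of 48 and 72 h APF, 2 adhesion genes were higher and 2 septate junction genes lower, and DESeq2 gave 2 septate junction genes higher. Thinning to 2000 UMIs gave mean shares of 97.9% for *Nlg2*, 47.2% for *Nlg3*, 21.7% for *Nlg4* and 69.8% for *Nrx-1*. Leaving out 1 library gave 0.47 to 1.12 for *Nlg3* at 72 over 24 h, 0.23 to 0.33 for *Nlg4* in T4 over T5, and 0 to 25 called pairs for *Nlg2* and 5 to 41 for *Nlg4*. Over the lists it gave 1 to 4 adhesion genes higher and 1 to 2 lower, 1 to 2 partners lower, and 1 to 2 septate junction genes higher or lower. The cause of these changes was not tested.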
